A study of Homo sapiens with 15 samples.

Results

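Integrin subunits and the adaptor proteins of focal adhesions were followed by RNA sequencing in IMR90, a widely used fibroblast line that came from human fetal lung. The 36 genes were chosen by name: 19 integrin subunits, the secreted integrin-beta-like protein ITGBL1 and 16 adaptors. All 36 were among the 57736 genes counted, and 32 of them were among the 15994 genes that passed the filter on low counts. The 4 untested genes (ITGA9, ITGB4, ITGB6 and ITGB7) stayed near 0 in every library.

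The 15 libraries of total RNA formed 5 groups of 3: growing control cells, senescent control cells, senescent cells carrying a hairpin RNA directed at TXNRD1 (the shTXNRD1 group), senescent cells treated with the solvent DMSO, and senescent cells treated with TRi-1 (spelled Tri-1 in the group label), an inhibitor of the TXNRD1 protein. TXNRD1 is the cytosolic thioredoxin reductase, and the study asked what its loss or inhibition does in senescent cells. How senescence was induced, the dose and time of TRi-1, the control used for the hairpin and whether replicates were separate cultures are not stated in the labels. Spread between libraries may thus be technical, and it is all that the p-values measure.

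Integrins are cell-surface receptors made of an alpha and a beta subunit, and the pair decides which matrix protein is bound: collagens, laminins, or proteins that carry the RGD tripeptide such as fibronectin and vitronectin. Inside the cell, talin and kindlin bind the beta tail and switch the receptor on. Vinculin, paxillin, the ILK complex, tensins and zyxin then join it to actin filaments, while the kinases FAK (gene PTK2) and SRC signal from the same site. Fibroblasts use these contacts to hold on to matrix, to pull on it and to sense its stiffness.

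Totals ran from 18033076 to 28909046 counts per library, with a median of 21156213. The level of TXNRD1, which checks the hairpin label, was 22.6 ± 2.30 CPM (SD, n = 3) in the hairpin libraries against 515 ± 12.0 in the senescent controls. Its RNA was at 431 ± 11.6 CPM with TRi-1 against 408 ± 19.3 with DMSO, and the label of an inhibitor of the protein cannot be checked by RNA. All 9 fibroblast markers were detected in every group, with a summed level of 10931 to 19892 CPM. The 7 leukocyte markers summed to at most 2.17 CPM in any library, and CD3E was at 0 in all groups. Levels are TMM-scaled CPM (counts scaled to a common library total), and in bulk RNA fewer cells of a type and less RNA per cell cannot be told apart.

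Libraries also differed in how well GC-rich genes were counted. Within their groups, growing control replicate 1 (tilt of -0.49 on the log2 scale, genes of at least 57.1% GC against genes of at most 40.8%), shTXNRD1 replicate 3 (-0.51) and DMSO replicate 1 (-0.28) counted GC-rich genes low, and shTXNRD1 replicate 1 (0.46) and growing control replicate 3 (0.33) counted them high. These tilts are relative to the mean of each library's own group. The comparisons between groups also differed by GC content. The median log2 change of the GC-rich against the GC-poor genes was 0.41 against -0.20 for senescence, -0.41 against 0.17 for the hairpin, 0.20 against -0.13 for TRi-1, and -0.62 against 0.30 for the hairpin effect minus the TRi-1 effect. For DMSO against senescent control the medians were -0.07 and 0.05. The part of GC content in the results was not tested by itself. Values after a per-library correction for GC content are given beside many of the results that the correction altered.

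Senescent control cells were first set against growing cells, to ask how the adhesion receptors differ between these states. Integrin subunits mostly rose: 9 of 15 tested were higher, led by the collagen receptor subunit ITGA2 (2.60-fold), and 3 were lower, led by ITGA8 (5.45-fold) and ITGA4 (4.46-fold). The adaptors went more often the other way, with 4 of 16 higher (TNS1, LIMS1, PXN and SRC) and 8 lower, among them vinculin and kindlin-2. With ITGBL1, which fell 9.13-fold, 13 members were higher and 12 lower, while 27.4% of all tested genes were called higher and 29.5% lower. The median change of the 32 members was 0.06 on the log2 scale against 0.03 for all tested genes, and single members ranged from -3.19 to 1.38. Calls are at an adjusted p under 0.05 from the quasi-likelihood test of edgeR over all tested genes.

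The hairpin was then compared with the senescent control, to ask which of these genes follow the loss of TXNRD1. The senescence and hairpin comparisons share the 3 senescent control libraries, with opposite signs, so opposite changes of a gene in them are not independent. Here 17 members were lower and 4 higher, where 24.8% of all tested genes were called lower and 25.8% higher. The largest falls were those of the tensins TNS1 (3.53-fold) and TNS3 (3.09-fold), of ITGA2 (2.57-fold) and of ITGB3 (2.25-fold). Of 16 adaptors, 10 fell, and of 15 integrin subunits, 7 fell. The 4 that rose were ITGA6, PTK2, LPP and ITGBL1. The median change of the members was -0.43, against -0.01 for all tested genes. After the GC correction 22 were lower and 3 higher, where 30.3% and 29.8% of all genes were, and the median was again -0.43.

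TRi-1 was compared with its solvent, DMSO, which asks the same of the inhibitor. It gave 7 lower and 4 higher members, where 12.2% of all tested genes were called lower and 7.64% higher. All 7 that fell were integrin subunits (ITGA1, ITGA6, ITGA8, ITGA11, ITGAV, ITGB1 and ITGB3), and all 4 that rose were adaptors (VCL, PXN, ILK and LPP). No integrin subunit rose and no adaptor fell at this threshold with edgeR. With the GC correction 13 members were lower and 7 higher, where 18.5% and 16.5% of all genes were, and 1 of 15 subunits (ITGB8) was higher and 2 of 16 adaptors (TLN2 and PTK2) lower. With the compared groups alone ITGB8 was higher and TLN2, LIMS1 and FERMT2 were lower, and without the 3 libraries of lowest GC tilt ITGB8 was higher and TLN2 and LIMS1 lower. At a mean CPM of at least 5, LIMS1 was lower (adjusted p = 0.0272). The split between subunits and adaptors therefore did not hold in these 4 settings. In these comparisons the libraries of the compared groups did not overlap for any called member. Nor did they for several members without a call, such as ITGA2, ITGA4 and ZYX with TRi-1. The share of all tested genes without overlap is not given here, so the lack of overlap is no result about the members.

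**Figure D1:**
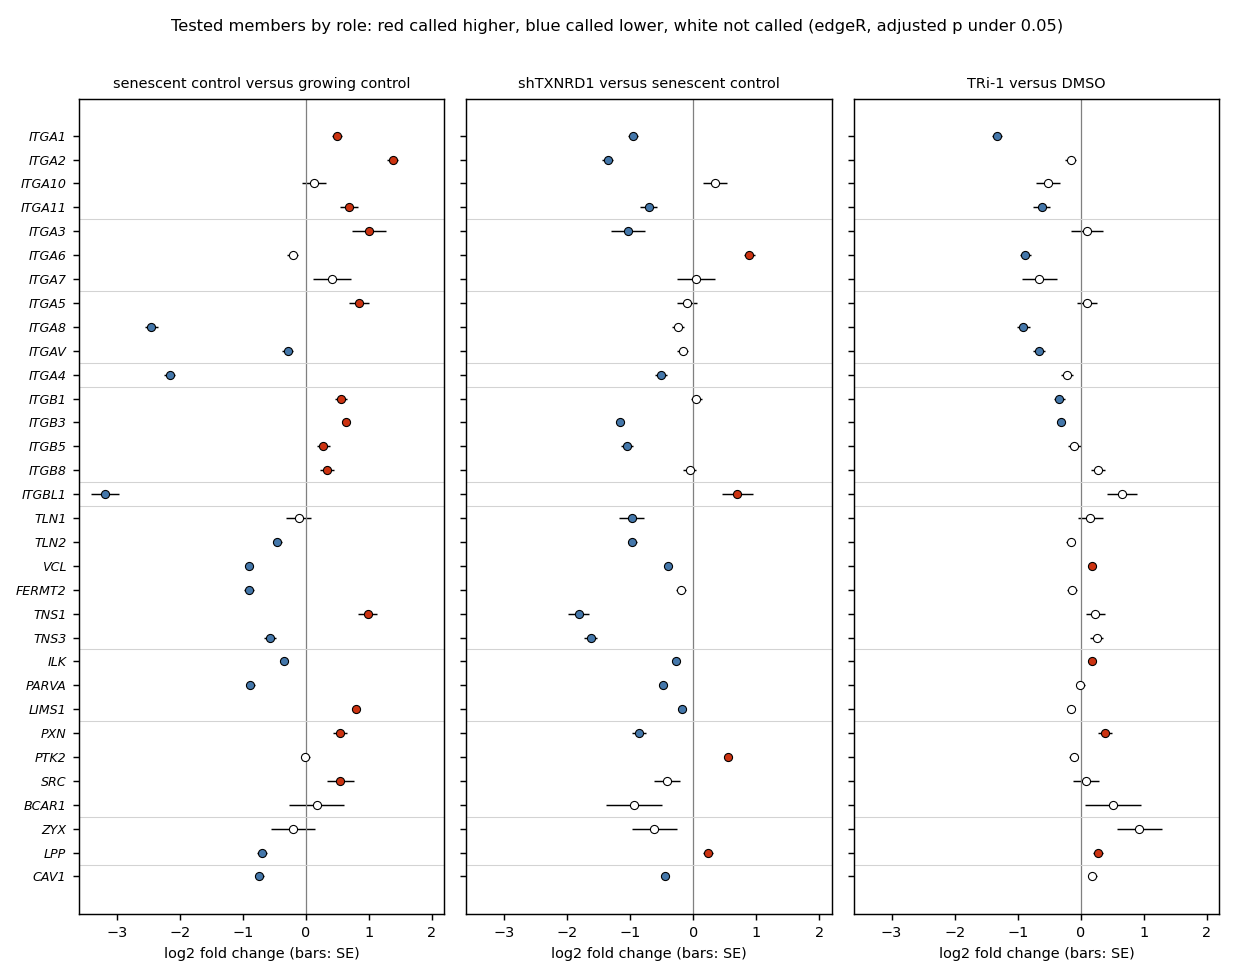
Log2 fold change (horizontal axis, with SE) of the 32 tested members, ordered by role from collagen-binding alpha subunits at the top to caveolin at the bottom, for senescence (left), the hairpin (middle) and TRi-1 (right). Red points were called higher, blue lower and white not called. The hairpin panel lies mostly to the left of 0, and in the TRi-1 panel the blue points are integrin subunits and the red points adaptors.

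Of the 4 collagen-binding alpha subunits, 3 changed both in senescence and with the hairpin. The share of all tested genes called in both is not given here, so this count is no result about the subunits. ITGA1 and ITGA2 are the receptor subunits for basement-membrane and fibrillar collagens, and ITGA11 is the fibrillar collagen receptor subunit of fibroblasts. All 3 rose in senescence and fell with the hairpin, and ITGA1 and ITGA11 also fell with TRi-1. The fourth, ITGA10, stayed between 1.70 and 3.27 CPM in every library and was called in none of these comparisons, with 0.13 ± 0.19 in senescence, 0.34 ± 0.19 with the hairpin and -0.52 ± 0.19 with TRi-1. The TRi-1 value of ITGA10 was called with the GC correction (-0.60, adjusted p = 0.0273) and with the compared groups alone (-0.54, adjusted p = 0.0356). The 250 bases before the start of the 3 genes are shown because the genes changed together, with each match to a GC box (GGGCGG, either strand) in capitals.
ITGA1 (chr5:52787666-52787915, plus strand): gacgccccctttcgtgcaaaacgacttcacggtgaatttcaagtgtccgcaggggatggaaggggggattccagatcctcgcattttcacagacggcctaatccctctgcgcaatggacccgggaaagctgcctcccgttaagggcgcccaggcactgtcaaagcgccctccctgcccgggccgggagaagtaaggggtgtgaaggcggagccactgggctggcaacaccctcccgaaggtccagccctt
ITGA2 (chr5:52989102-52989351, plus strand): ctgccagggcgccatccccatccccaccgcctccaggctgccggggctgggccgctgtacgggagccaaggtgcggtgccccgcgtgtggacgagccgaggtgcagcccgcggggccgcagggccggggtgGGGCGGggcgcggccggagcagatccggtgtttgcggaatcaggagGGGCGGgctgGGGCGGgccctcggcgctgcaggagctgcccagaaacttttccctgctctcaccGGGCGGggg
ITGA11 (chr15:68432164-68432413, minus strand): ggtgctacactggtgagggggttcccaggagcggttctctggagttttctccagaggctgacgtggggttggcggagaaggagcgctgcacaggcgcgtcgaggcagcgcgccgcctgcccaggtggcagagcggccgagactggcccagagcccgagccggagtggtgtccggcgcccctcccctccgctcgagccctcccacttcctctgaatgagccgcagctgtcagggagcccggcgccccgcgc
These are RefSeq sequences of build GRCh38.p14, written 5′ to 3′ on the strand of the gene. ITGA2 has 4 GC boxes and the other shown promoters have none, and none of the 3 holds the AP-1 motif TGANTCA, the TEAD motif CATTCC or a CArG box on either strand. Among the 28 members with a promoter in the RefSeq table, 17 held a GC box within 250 bases before to 50 after the start, 4 the TEAD motif (ITGA5, ITGA10, ITGB1 and VCL), 2 the AP-1 motif (ITGA5 and BCAR1) and 1 a CArG box (ITGB6). In 27305 such windows the shares were 44.6%, 14.0%, 7.76% and 1.29%. A match is a run of letters and says nothing of binding, and no match says only that the letters are not in this window.

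ITGA2 (ENSG00000164171) stood at 371, 304 and 310 CPM in the growing libraries and at 841, 830 and 893 in the senescent controls. The hairpin libraries held 297, 329 and 373. The DMSO libraries held 1018, 947 and 937 and the TRi-1 libraries 868, 854 and 869. The senescent levels without the hairpin were thus all above 800 CPM and the hairpin levels overlapped those of growing cells. The log2 change was 1.38 ± 0.09 (SE) in senescence (adjusted p = 6.42e-09, edgeR) and -1.36 ± 0.09 with the hairpin (adjusted p = 1.83e-08). With TRi-1 it was -0.16 ± 0.09, with an interval from -0.35 to 0.02 and an adjusted p of 0.205, although the libraries did not overlap. It was called with the compared groups alone (-0.17, adjusted p = 0.00405).

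ITGA1 (ENSG00000213949) was the member that fell furthest with TRi-1. Its level was 697, 594 and 587 CPM in growing cells, 881, 837 and 915 in senescent controls and 410, 444 and 504 with the hairpin. It was 1125, 1021 and 1019 CPM with DMSO and 416, 416 and 424 with TRi-1, so both inhibited groups lay below every growing library. The change was 0.49 ± 0.08 in senescence, -0.95 ± 0.08 with the hairpin and -1.33 ± 0.08 with TRi-1 (adjusted p = 0.000158, 3.90e-07 and 1.10e-07, edgeR). PELO, on the same strand, overlaps 2.56% of the exon bases of ITGA1. PELO itself stood at 79.2 ± 2.73 CPM in senescent controls, 79.2 ± 2.33 with the hairpin, 69.6 ± 2.35 with DMSO and 79.2 ± 2.23 with TRi-1.

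ITGA11 (ENSG00000137809) had 198, 260 and 280 CPM in growing cells, 389, 421 and 370 in senescent controls and 285, 248 and 189 with the hairpin. The DMSO libraries held 410, 477 and 463 CPM and the TRi-1 libraries 292, 293 and 291. Its change was 0.68 ± 0.14 in senescence, -0.71 ± 0.14 with the hairpin and -0.62 ± 0.14 with TRi-1 (adjusted p = 0.000937, 0.000804 and 0.00678, edgeR). It is the collagen receptor subunit for which hairpin and TRi-1 gave the closest values: they differed by -0.09, with an interval from -0.51 to 0.34.

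**Figure D2:**
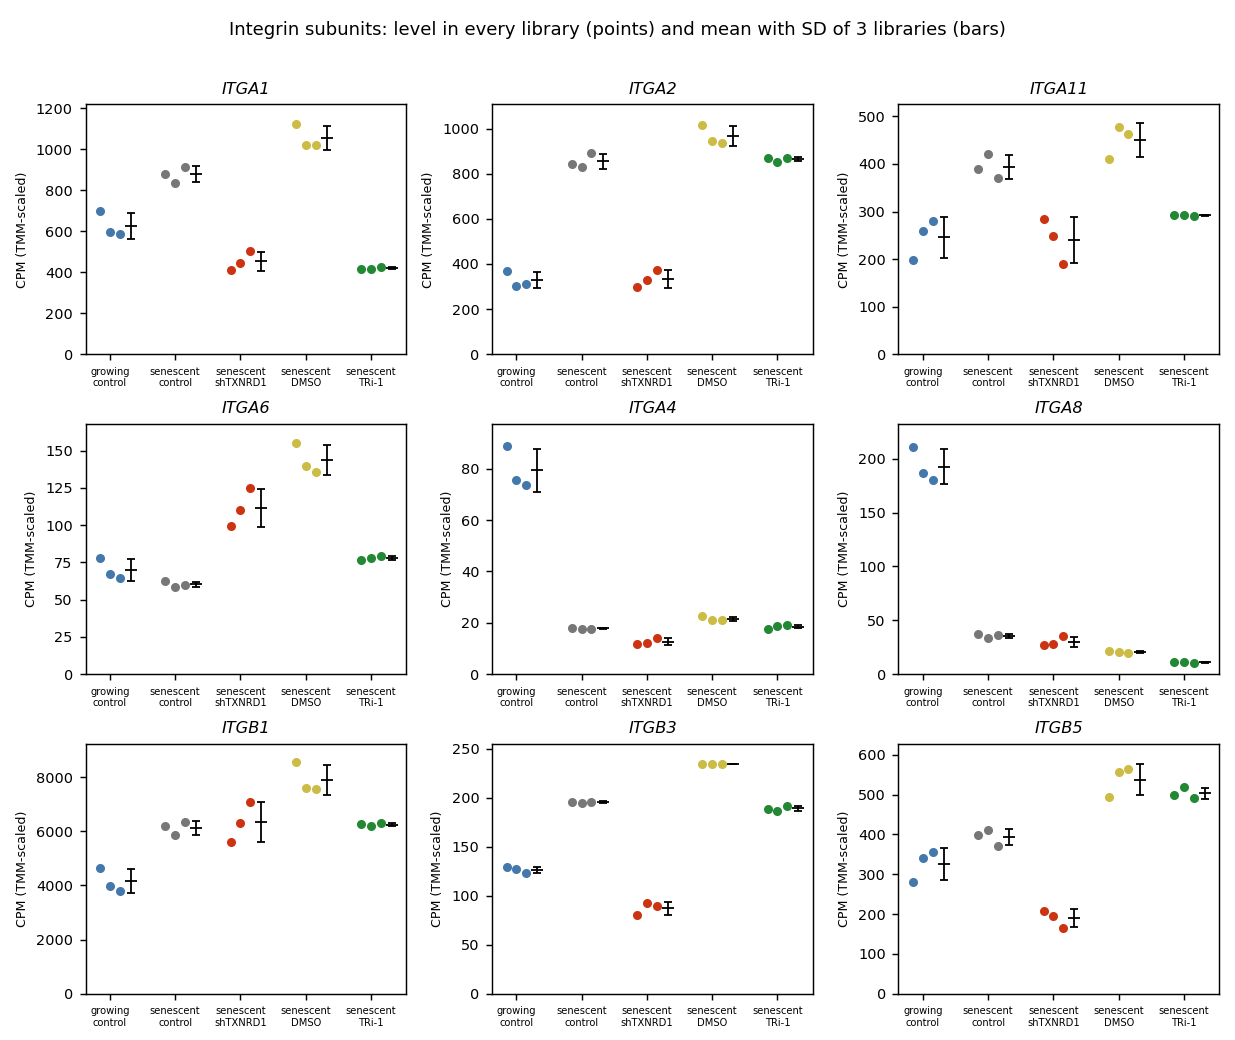
Level in TMM-scaled CPM (vertical axes, from 0) of 9 integrin subunits in each of the 15 libraries (points) with the mean and SD of 3 libraries (black bars), by group. ITGA1, ITGA2 and ITGA11 are high in senescent control and DMSO libraries and low with the hairpin, while ITGA6 is highest with DMSO and the hairpin, and ITGA4 and ITGA8 are high in growing cells.

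Of the laminin-binding alpha subunits, ITGA6 set the inhibitions apart. ITGA6 pairs with ITGB1 or with ITGB4, the hemidesmosome subunit, which had at most 7 counts over the 3 libraries of a group here. Its level was 77.9, 67.4 and 64.2 CPM in growing cells, 62.2, 58.7 and 59.8 in senescent controls and 99.2, 110 and 125 with the hairpin. It was 155, 140 and 136 CPM with DMSO and 76.8, 77.7 and 79.2 with TRi-1. ITGA6 (ENSG00000091409) thus rose with the hairpin by 0.89 ± 0.09 and fell with TRi-1 by 0.88 on the log2 scale (SE 0.09; adjusted p = 1.40e-06 and 8.90e-06, edgeR). The DMSO libraries lay 1.25 ± 0.09 above the senescent controls (adjusted p = 7.31e-07), so the TRi-1 level of 77.9 ± 1.18 CPM was still above the senescent control level of 60.2 ± 1.78.

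ITGA3, which pairs with ITGB1 in another laminin receptor, stood at 73.5, 127 and 149 CPM in growing cells, 239, 256 and 209 in senescent controls and 156, 114 and 73.8 with the hairpin. Its lowest libraries in the growing and hairpin groups were those that counted GC-rich genes low. It rose by 1.01 ± 0.27 in senescence and fell by 1.04 on the log2 scale with the hairpin (SE 0.27; adjusted p = 0.00606 and 0.00599, edgeR). Corrected for GC these values were 0.61 and -0.63, both still called. DMSO gave 231, 302 and 312 CPM and TRi-1 302, 313 and 293, which overlap. ITGA7, the laminin receptor subunit of muscle, had 0.555 to 1.84 CPM over all libraries and was not called in the fit of all libraries. Its TRi-1 value of -0.66 ± 0.28 was called with a replicate block (adjusted p = 0.0478), the GC correction (-0.83, adjusted p = 0.0279) and the compared groups alone (adjusted p = 0.0492).

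The RGD-binding alpha subunits split. ITGA5, the fibronectin receptor subunit, had 602 ± 129 CPM in growing cells and 1080 ± 65.0 in senescent controls, a rise of 0.84 ± 0.16 (adjusted p = 0.000713, edgeR). It was at 1010 ± 228 with the hairpin, 1197 ± 102 with DMSO and 1284 ± 17.8 with TRi-1. Neither inhibition gave a call for ITGA5, with intervals of the change from -0.45 to 0.26 for the hairpin and from -0.25 to 0.46 for TRi-1. ITGA8 (ENSG00000077943), the receptor subunit for nephronectin, went the other way in senescence. It had 211, 187 and 180 CPM in growing cells and 36.9, 33.5 and 35.8 in senescent controls, a change of -2.45 ± 0.10 (adjusted p = 3.64e-11).

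ITGA8 was 27.1, 27.8 and 35.2 CPM with the hairpin, which overlapped the controls (-0.24 ± 0.10, adjusted p = 0.0501, edgeR). That value lay at the threshold: ITGA8 was called with limma-voom (adjusted p = 0.0462), with genes above 1% of counts left out of scaling (adjusted p = 0.0399), at a mean CPM of at least 5 (adjusted p = 0.0316) and after GC correction (-0.35, adjusted p = 5.46e-05). It was also called without senescent control replicate 2 (-0.28, adjusted p = 0.0444) or shTXNRD1 replicate 3 (-0.37, adjusted p = 0.00118). ITGA8 was 21.6, 20.5 and 19.6 CPM with DMSO and 11.5, 10.7 and 10.6 with TRi-1, a further fall of 0.91 on the log2 scale (SE 0.10, adjusted p = 2.79e-05). ITGAV, the partner of ITGB3, ITGB5, ITGB6 and ITGB8 in the receptors that bind vitronectin or activate latent TGF-beta, had 589, 491 and 478 CPM in growing cells and 435, 406 and 434 in senescent controls. Its change of -0.29 ± 0.09 (adjusted p = 0.0148) lost the call without growing control replicate 1 (-0.19, adjusted p = 0.0653) or senescent control replicate 2 (-0.25, adjusted p = 0.0518). With the GC correction it was -0.09 and still called (adjusted p = 0.00782, edgeR). With the hairpin ITGAV was at 337, 374 and 420 CPM, overlapping the controls, but after GC correction its change was -0.34 and called (adjusted p = 7.90e-09), as it was without shTXNRD1 replicate 3 (-0.26, adjusted p = 0.0227). With TRi-1 it fell from 618, 538 and 540 CPM to 353, 359 and 359 (-0.66 ± 0.09, adjusted p = 0.000175), a level below every growing library.

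ITGA4 (ENSG00000115232), the receptor subunit for VCAM1 and fibronectin, fell in senescence from 88.8, 75.7 and 73.5 CPM to 18.1, 17.6 and 17.7. The change was -2.16 ± 0.09 (adjusted p = 4.42e-11, edgeR). The hairpin libraries held 11.6, 11.9 and 14.1 CPM, lower again by 0.51 ± 0.09 (adjusted p = 0.00027). The DMSO libraries held 22.5, 20.9 and 21.0 CPM and the TRi-1 libraries 17.7, 18.6 and 19.0, which do not overlap but gave no call (-0.22 ± 0.09). The TRi-1 value was called at a mean CPM of at least 5 (-0.25, adjusted p = 0.0255), after GC correction (-0.17, adjusted p = 0.0155) and with the compared groups alone (-0.23, adjusted p = 0.0228). Its relative ITGA9 summed to 3 counts with the hairpin and 36 with DMSO, too few to test.

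Per kilobase of exon, the summed level of the 12 alpha subunits was 299 ± 6.42 CPM per kb in growing cells, 426 ± 5.29 in senescent controls, 303 ± 23.5 with the hairpin, 504 ± 5.19 with DMSO and 419 ± 2.08 with TRi-1. On this scale ITGA5 held the largest mean share in every group. Its share was 26.5 ± 5.25% in growing cells and 33.4 ± 1.59% in senescent controls, 43.7 ± 6.71% with the hairpin, 31.3 ± 2.36% with DMSO and 40.5 ± 0.361% with TRi-1. In single growing libraries the share ran from 20.5 to 30.3% for ITGA5 and from 19 to 24.4% for ITGAV, which overlap. The exon length used was that of all annotated exons of a gene merged. ITGA2 took 13.9 ± 1.78% in growing cells, 25.3% in senescent controls (24.3 ± 1.34% with DMSO) and 14.0 ± 2.73% with the hairpin. ITGAV went from 21.2 ± 2.87% to 12.1 ± 0.610% between growing and senescent controls, and ITGA8 had 8.57 ± 0.900% in growing cells and 0.541 ± 0.0305% with DMSO. ITGA1 had 11.3 ± 0.762% with DMSO and 5.38 ± 0.0857% with TRi-1. Shares are descriptions of RNA and were not tested.

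**Figure D3:**
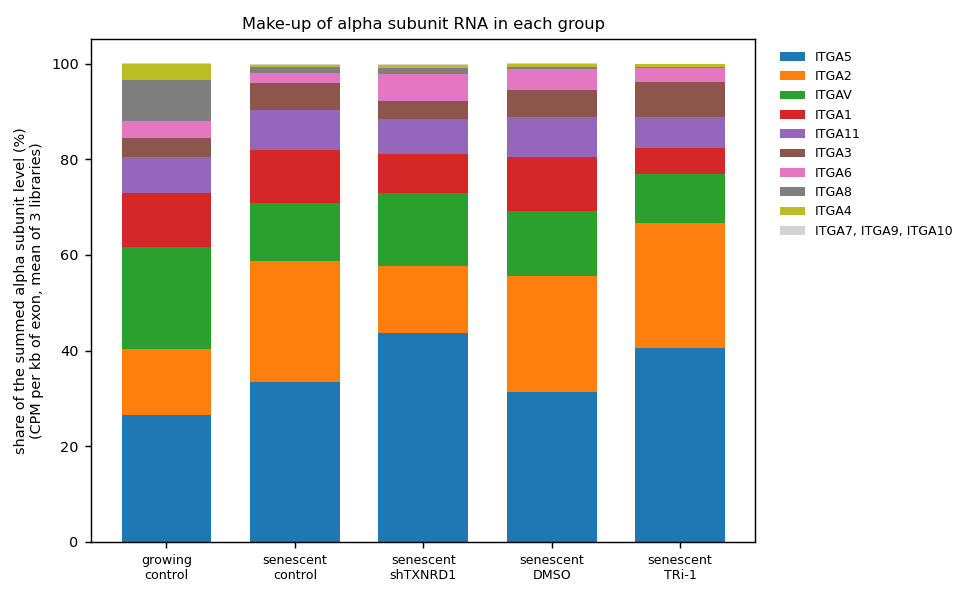
Share of each alpha subunit in the summed alpha subunit level (vertical axis, percent of CPM per kb of exon, mean of 3 libraries) in the 5 groups. ITGA5 is the largest block in every group, ITGA2 is wide in senescent control, DMSO and TRi-1 cells, and the ITGAV, ITGA8 and ITGA4 blocks are widest in growing cells.

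Among the beta subunits, all 4 tested rose in senescence, where 27.4% of all tested genes were called higher. ITGB1, the common partner of most alpha subunits, made up 89.5 ± 1.58% of the summed beta level per kilobase in growing cells and 95.4 ± 0.695% with the hairpin. It had 4647, 3984 and 3806 CPM in growing cells, 6189, 5853 and 6335 in senescent controls and 5604, 6306 and 7076 with the hairpin. The rise in senescence was 0.56 ± 0.09 (adjusted p = 9.14e-05, edgeR). The hairpin value of 0.05 ± 0.09 was no call, and with the GC correction it was -0.10 with an adjusted p of 0.000592. ITGB1 was 8537, 7589 and 7568 CPM with DMSO and 6252, 6188 and 6295 with TRi-1 (-0.34 ± 0.09, adjusted p = 0.0156). That call was lost without DMSO replicate 1 (-0.28, adjusted p = 0.0779) or TRi-1 replicate 1 (-0.34, adjusted p = 0.0511). The GC-corrected value was -0.22 and still called (adjusted p = 6.04e-07, edgeR).

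ITGB3 (ENSG00000259207), which joins ITGAV in the vitronectin receptor and binds several RGD proteins, stood at 129, 127 and 123 CPM in growing cells, 196, 195 and 196 in senescent controls and 80.1, 92.3 and 89.2 with the hairpin. It was 235 CPM in each DMSO library and 189, 187 and 192 with TRi-1. The hairpin level thus fell below that of growing cells, while the TRi-1 level lay just under that of the senescent control. The change was 0.63 ± 0.05 in senescence, -1.17 ± 0.05 with the hairpin and -0.31 ± 0.05 with TRi-1 (adjusted p = 1.52e-07, 5.94e-10 and 0.000901, edgeR). An overlapping same-strand gene model, AC068234.1, covers 51.6% of its exon bases but held 43 counts in all libraries together, against 54995 for ITGB3.

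ITGB5, the other common partner of ITGAV, had 280, 342 and 356 CPM in growing cells and 399, 412 and 372 in senescent controls. The rise of 0.28 ± 0.10 (adjusted p = 0.0242, edgeR) was lost without growing control replicate 1 (0.18, adjusted p = 0.114), senescent control replicate 1 (0.27, adjusted p = 0.0671) or senescent control replicate 2 (0.24, adjusted p = 0.0899). With the GC correction it was 0.13 and still called (adjusted p = 0.00166, edgeR). The hairpin libraries held 208, 196 and 166 CPM, lower than every other library (-1.05 ± 0.10, adjusted p = 7.17e-07). DMSO gave 493, 556 and 564 CPM and TRi-1 499, 519 and 491, which overlap, though the GC-corrected change of -0.19 was called (adjusted p = 0.000185). ITGB8, which activates latent TGF-beta with ITGAV, rose in senescence from 11.6 ± 1.44 to 14.7 ± 0.490 CPM (0.34 ± 0.11, adjusted p = 0.0173). That call ended without growing control replicate 2 (0.29, adjusted p = 0.0662) or 3 (0.30, adjusted p = 0.0547) or senescent control replicate 1 (0.32, adjusted p = 0.0515), while the GC-corrected value was 0.54. ITGB6 and ITGB7 had at most 13 and 9 counts over the libraries of a group.

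ITGBL1, a secreted protein related to the beta subunit stalk, had 10.5, 9.66 and 10.4 CPM in growing cells and 0.692 to 1.50 in senescent controls. The log2 change was -3.19 ± 0.22 (adjusted p = 1.75e-08, edgeR). The hairpin libraries held 1.60, 2.23 and 1.59 CPM (0.70 ± 0.24, adjusted p = 0.0241), which did not hold when senescent control replicate 2 (0.46, adjusted p = 0.109) or 3 (0.69, adjusted p = 0.0576) or shTXNRD1 replicate 2 (0.51, adjusted p = 0.129) was left out. It was 0.56 with the GC correction (adjusted p = 0.0551) and 0.77 with the compared groups alone (adjusted p = 0.0845). The DMSO level was 1.19 ± 0.0918 CPM and the TRi-1 level 1.88 ± 0.353, with no call (0.65 ± 0.24). That TRi-1 value was called with the GC correction (0.76, adjusted p = 0.0179), the compared groups alone (0.64, adjusted p = 0.0427) and without TRi-1 replicate 2 (0.80, adjusted p = 0.0499). FGF14, on the opposite strand, shares 70.5% of the exon bases of ITGBL1, and since the strand used in counting is not given, reads of the 2 genes cannot be told apart. FGF14 was at 0.228 ± 0.0904 CPM in growing and 0.406 ± 0.0851 in senescent controls.

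Talin, kindlin, vinculin and the tensins carry the link from the beta tail to actin. With the hairpin 5 of these 6 genes fell, where 24.8% of all tested genes were called lower. TNS1 (ENSG00000079308), a tensin of the long fibrillar adhesions, had 50.6, 65.7 and 73.0 CPM in growing cells, 124, 132 and 117 in senescent controls and 43.3, 34.4 and 27.9 with the hairpin. It rose by 0.98 ± 0.15 in senescence and fell by 1.82 on the log2 scale with the hairpin (SE 0.16; adjusted p = 0.000102 and 6.29e-07, edgeR). The hairpin level lay below every growing library. DMSO gave 106, 129 and 135 CPM and TRi-1 143, 151 and 139, which do not overlap but gave no call (0.23 ± 0.15, adjusted p = 0.324).

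TNS3 (ENSG00000136205), another tensin, fell in both comparisons. It had 399, 480 and 514 CPM in growing cells, 310, 327 and 300 in senescent controls and 113, 103 and 87.4 with the hairpin. The changes were -0.57 ± 0.10 and -1.63 ± 0.10 (adjusted p = 0.000178 and 1.33e-08, edgeR). DMSO libraries held 219, 241 and 249 CPM and TRi-1 libraries 282, 285 and 278, which do not overlap but gave no call (0.25 ± 0.10, adjusted p = 0.0851). TNS3 was called higher with TRi-1 after GC correction (0.14, adjusted p = 7.18e-05), with the compared groups alone (adjusted p = 0.00628) and without the 3 libraries of lowest GC tilt (0.20, adjusted p = 0.00834).

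VCL (ENSG00000035403), vinculin, strengthens adhesions under load. It stood at 1877, 1889 and 1873 CPM in growing cells, 994, 1009 and 1026 in senescent controls and 760, 767 and 773 with the hairpin. The DMSO libraries held 1005, 1036 and 1023 CPM and the TRi-1 libraries 1167, 1150 and 1160. It fell in senescence by 0.90 and with the hairpin by 0.40 on the log2 scale (SE 0.04 in both; adjusted p = 1.87e-10 and 2.15e-06, edgeR), and rose with TRi-1 by 0.18 ± 0.04 (adjusted p = 0.00632). The TRi-1 call was lost without the filter on low counts (adjusted p = 0.162). AP3M1, on the opposite strand, shares 11.1% of the exon bases of VCL and held 34857 counts in all, against 389502 for VCL. Since the strand used in counting is not given, reads of the shared bases cannot be told apart.

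The talins activate integrins by binding the beta tail. TLN2 had 60.4, 66.6 and 69.9 CPM in growing cells, 47.6, 49.7 and 46.4 in senescent controls and 26.7, 24.5 and 22.2 with the hairpin, changes of -0.45 ± 0.07 and -0.97 ± 0.07 (adjusted p = 8.33e-05 and 9.68e-08, edgeR). The more abundant TLN1 had 986 ± 228 CPM in growing cells and 910 ± 92.2 in senescent controls, which overlap. It fell to 588, 465 and 328 CPM with the hairpin (-0.98 ± 0.20, adjusted p = 0.00121), and its lowest library was again the one that counted GC-rich genes low. The corrected TLN1 values were -0.74 for the hairpin and -0.37 for senescence, the latter with an adjusted p of 0.000109. FERMT2, kindlin-2, the coactivator of talin, fell in senescence from 394 ± 39.6 to 212 ± 9.36 CPM (-0.90 ± 0.08, adjusted p = 5.32e-07). With the hairpin FERMT2 was at -0.20 ± 0.08 (adjusted p = 0.0618), a value called after GC correction (-0.40, adjusted p = 9.26e-11), at a mean CPM of at least 5 (adjusted p = 0.0346), with genes above 1% of counts left out of scaling (adjusted p = 0.0464) and without senescent control replicate 2 (-0.24, adjusted p = 0.0499) or shTXNRD1 replicate 3 (-0.29, adjusted p = 0.00709). Its TRi-1 value of -0.14 ± 0.08 was called with the compared groups alone (adjusted p = 0.0192).

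**Figure D4:**
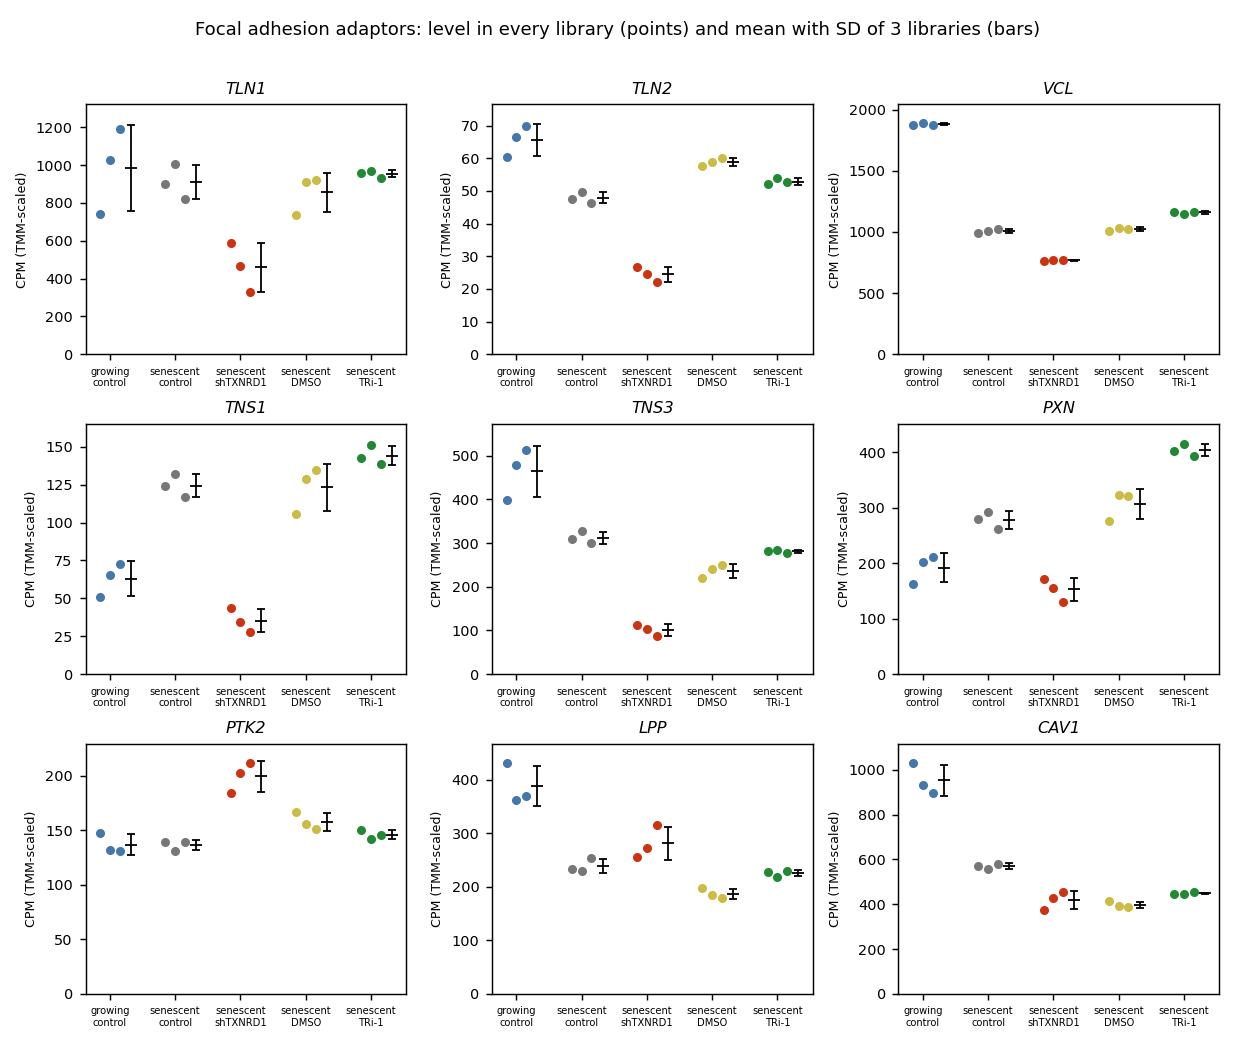
Level in TMM-scaled CPM (vertical axes, from 0) of 9 adaptor genes in each of the 15 libraries (points) with the mean and SD of 3 libraries (black bars), by group. TLN1, TLN2, TNS1, TNS3 and PXN are lowest with the hairpin, VCL and CAV1 are highest in growing cells, and PTK2 is highest with the hairpin.

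The complex of ILK, PINCH and parvin sits on the beta tail and binds actin. PARVA, alpha-parvin, fell in senescence from 465, 438 and 429 CPM to 237, 236 and 251, and to 153, 178 and 190 with the hairpin. The changes were -0.88 ± 0.07 and -0.48 ± 0.07 (adjusted p = 7.43e-08 and 5.13e-05, edgeR), and DMSO (217 ± 5.94 CPM) and TRi-1 (216 ± 1.19) overlapped. LIMS1, which encodes PINCH1, went the other way in senescence, from 127, 116 and 117 CPM to 210, 202 and 211 (0.79 ± 0.06, adjusted p = 6.58e-08). With the hairpin LIMS1 had 171, 179 and 199 CPM, a change of -0.18 ± 0.06 (adjusted p = 0.0218) whose call ended when senescent control replicate 3 (-0.17, adjusted p = 0.0631) or shTXNRD1 replicate 2 (-0.17, adjusted p = 0.0567) was left out. It also ended with upper quartile scaling (-0.13, adjusted p = 0.0791), without the filter on low counts (adjusted p = 0.0939) and with the compared groups alone (adjusted p = 0.0767), and was -0.34 and called after GC correction. LIMS1 was 203, 186 and 194 CPM with DMSO and 177, 173 and 175 with TRi-1, with no call.

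ILK, integrin-linked kinase, had 332, 364 and 343 CPM in growing cells, 264, 272 and 279 in senescent controls and 232, 224 and 219 with the hairpin. DMSO libraries held 224, 247 and 237 CPM and TRi-1 libraries 263, 265 and 272. The changes were -0.35 ± 0.05 in senescence, -0.27 ± 0.05 with the hairpin and 0.18 ± 0.05 with TRi-1 (adjusted p = 5.54e-05, 0.000663 and 0.0312, edgeR). After GC correction the senescence value was -0.56, the hairpin value -0.07 (adjusted p = 0.514) and the TRi-1 value 0.06 (adjusted p = 0.671). The TRi-1 call was also lost without DMSO replicate 1 or 3 or any TRi-1 replicate (adjusted p from 0.0709 to 0.141, changes from 0.14 to 0.18), with upper quartile scaling (adjusted p = 0.0656), without the filter (adjusted p = 0.198) and at a mean CPM of at least 5 (adjusted p = 0.0674). TAF10, on the opposite strand, shares 68.1% of the exon bases of ILK, and reads of the 2 genes cannot be told apart. TAF10 was lower in senescence by 0.48 ± 0.11 and with the hairpin by 0.38 ± 0.11.

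Scaffolds and kinases followed no common course. PXN, paxillin, the scaffold that FAK and vinculin bind, had 163, 202 and 211 CPM in growing cells, 279, 293 and 262 in senescent controls and 172, 156 and 130 with the hairpin. The DMSO libraries held 276, 323 and 321 CPM and the TRi-1 libraries 402, 415 and 394. Its change was 0.54 ± 0.11 in senescence, -0.86 ± 0.11 with the hairpin and 0.39 ± 0.11 with TRi-1 (adjusted p = 0.00069, 1.40e-05 and 0.0185, edgeR). Corrected for GC these were 0.14 (adjusted p = 0.244), -0.47 (adjusted p = 0.00186) and 0.21 (adjusted p = 0.134), so for PXN the hairpin call alone remained. Without DMSO replicate 1 the TRi-1 value was 0.32 (adjusted p = 0.0886), and without TRi-1 replicate 1, 2 or 3 it was 0.40, 0.38 and 0.41 (adjusted p = 0.0517, 0.0705 and 0.0501). The antisense gene PXN-AS1 covers 12.3% of the exon bases of PXN and held 118 counts in all.

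PTK2, which encodes focal adhesion kinase, was the adaptor that rose most with the hairpin, from 139, 131 and 139 CPM to 184, 203 and 212 (0.55 ± 0.07, adjusted p = 9.79e-06, edgeR). Growing cells held 148, 132 and 131 CPM, DMSO 167, 156 and 151 and TRi-1 150, 142 and 146. The senescence value for PTK2 was -0.01 ± 0.07, and 0.11 with the GC correction (adjusted p = 0.00357). SRC, a kinase that partners FAK, rose in senescence from 15.1, 21.5 and 23.5 CPM to 29.8, 30.9 and 27.1 (0.55 ± 0.21, adjusted p = 0.0432). That call was lost when any library except growing control replicate 3 was left out: growing control replicate 1 (0.38, adjusted p = 0.172) or 2 (0.60, adjusted p = 0.0672) or senescent control replicate 1 (0.54, adjusted p = 0.0978), 2 (0.51, adjusted p = 0.114) or 3 (0.60, adjusted p = 0.0571). It also failed without the filter on low counts (adjusted p = 0.129) and with a replicate block (adjusted p = 0.0604). After GC correction the SRC value was 0.22 and still called (adjusted p = 0.00808, edgeR). BCAR1, the SRC substrate p130Cas, ranged from 7.24 to 43.3 CPM, with an SE of 0.44 to 0.63, and was not called in the fit of all libraries. Its hairpin value of -0.94 ± 0.45 was called after GC correction (-0.50, adjusted p = 0.0332) and without shTXNRD1 replicate 1 (-1.56, adjusted p = 0.0123). Without the same library the hairpin value of SRC, -0.42 ± 0.21, was also called (-0.62, adjusted p = 0.0376).

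ZYX, zyxin, gathers at adhesions under tension. It is the member with the highest GC content, 64.9%, and spread widely within groups: 129, 248 and 309 CPM in growing cells, 193, 234 and 167 in senescent controls and 197, 118 and 69.6 with the hairpin. With DMSO it had 95.4, 139 and 146 CPM and with TRi-1 236, 264 and 224, a change of 0.93 ± 0.36 without a call (adjusted p = 0.0912, edgeR). Corrected for GC, ZYX was called higher with TRi-1 (0.69, adjusted p = 2.63e-09) and lower in senescence (-0.76, adjusted p = 7.33e-11). Its hairpin value of -0.62 ± 0.36 was called without shTXNRD1 replicate 1 (-1.09, adjusted p = 0.021). LPP, its relative, fell in senescence from 432, 363 and 370 CPM to 234, 230 and 254 (-0.70 ± 0.08, adjusted p = 6.97e-06). LPP then rose with the hairpin to 255, 273 and 316 CPM (0.23 ± 0.08, adjusted p = 0.0328) and with TRi-1 from 197, 184 and 179 to 228, 219 and 229 CPM (0.27 ± 0.08, adjusted p = 0.0351).

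These smaller rises of LPP were fragile. In the hairpin comparison its call ended when senescent control replicate 1 (0.21, adjusted p = 0.0895) or 2 (0.20, adjusted p = 0.106) or shTXNRD1 replicate 3 (0.14, adjusted p = 0.15) was left out and with RLE scaling (adjusted p = 0.0513). After GC correction the hairpin value was 0.08 and still called (adjusted p = 0.0158, edgeR). The TRi-1 call of LPP was lost without DMSO replicate 2 (0.26, adjusted p = 0.101) or 3 (0.24, adjusted p = 0.117) or without TRi-1 replicate 1 (0.26, adjusted p = 0.0986), 2 (0.30, adjusted p = 0.0548) or 3 (0.26, adjusted p = 0.0902), with RLE scaling (adjusted p = 0.0574) and with upper quartile scaling (adjusted p = 0.0522). CAV1, caveolin-1, the coat protein of caveolae, fell in senescence from 1030, 932 and 898 CPM to 572, 559 and 582 (-0.74 ± 0.07, adjusted p = 4.69e-07, edgeR). It fell again with the hairpin to 376, 426 and 454 CPM (-0.45 ± 0.07, adjusted p = 9.35e-05) and was 414, 392 and 386 with DMSO and 448, 447 and 453 with TRi-1, which do not overlap but gave no call (0.18 ± 0.07, adjusted p = 0.0902). CAV1 was called higher with TRi-1 after GC correction (0.19, adjusted p = 4.62e-05), with the compared groups alone (0.17, adjusted p = 0.00332) and without the 3 libraries of lowest GC tilt (0.21, adjusted p = 0.00535).

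The hairpin and TRi-1 comparisons share no library, and the difference between their effects was tested directly. It was called positive (hairpin effect above TRi-1 effect) for 7 members, where 22.1% of all tested genes were, and negative for 14, where 19.5% were. Of the 16 adaptors, 10 were negative and 1, PTK2, was positive (0.66 ± 0.09). The 10 negative adaptors had a median GC content of 55.8%, against 54.2% for all 16. Over all members, the 14 negative ones had a median of 54.9% and the 7 positive ones of 42.9%. For the hairpin alone the lower members had 52.3% and the higher 41.2%. In senescence the higher had 52.3% and the lower 44.6%, and with TRi-1 the higher had 50.5% and the lower 42.9%. The part of GC content in these calls was not tested by itself. Among the adaptors, differences of more than 1 in size were called for TNS1 (-2.05 ± 0.22), TNS3 (-1.88 ± 0.14), PXN (-1.26 ± 0.15) and TLN1 (-1.14 ± 0.28), with adjusted p of 8.60e-06, 2.09e-07, 2.00e-05 and 0.00616 (edgeR), and for ZYX. ZYX (-1.55 ± 0.50, adjusted p = 0.0265) lost its call without the filter on low counts (adjusted p = 0.0823) and in fits that left out senescent control replicate 2 (-1.42, adjusted p = 0.0644), shTXNRD1 replicate 2 (-1.50, adjusted p = 0.0584), DMSO replicate 1 (-1.39, adjusted p = 0.0681) or TRi-1 replicate 2 (-1.49, adjusted p = 0.0561). BCAR1 (-1.45 ± 0.63, adjusted p = 0.0819) was called with limma-voom (-1.67, adjusted p = 0.0477), after GC correction (-0.80, adjusted p = 0.0201), with the compared groups alone (adjusted p = 0.0455) and without shTXNRD1 replicate 1 (-2.06, adjusted p = 0.0126). After GC correction 13 adaptors were negative, where 25.8% of all genes were, ZYX was -0.77, PXN was -0.68 and ILK, at -0.13, was no longer called (adjusted p = 0.427).

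The called integrin subunits divided by the sign of this difference. ITGA2 (-1.20 ± 0.12, adjusted p = 3.87e-06, edgeR), ITGB5 (-0.96 ± 0.14, adjusted p = 8.03e-05), ITGB3 (-0.86 ± 0.07, adjusted p = 9.90e-07) and ITGA3 (-1.14 ± 0.37, adjusted p = 0.0278) were negative. ITGA6 (1.77 ± 0.12, adjusted p = 1.18e-07), ITGA8 (0.67 ± 0.14, adjusted p = 0.00159), ITGAV (0.49 ± 0.13, adjusted p = 0.00761), ITGB1 (0.39 ± 0.13, adjusted p = 0.0244), ITGA1 (0.38 ± 0.12, adjusted p = 0.0178) and ITGA10 (0.87 ± 0.26, adjusted p = 0.0172) were positive. Of these, ITGA6 rose with the hairpin, and ITGA8, ITGAV, ITGB1 and ITGA10 were not called there. ITGA6 and ITGB1 had 77.9 and 6245 CPM with TRi-1, 144 and 7898 with DMSO and 60.2 and 6125 in senescent controls. The TRi-1 levels of ITGA1, ITGA8 and ITGAV were below the senescent controls. ITGA4 (-0.29 ± 0.12) and ITGB8 (-0.34 ± 0.16) were not called but were so after GC correction (-0.46 and -0.64) and without shTXNRD1 replicate 3 (-0.38 and -0.48). The receptor subunit ITGAV and its partners ITGB3 and ITGB5 thus lay on different sides.

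Several of those differences rested on single libraries. The ITGA3 call failed without the filter on low counts (adjusted p = 0.0853) and in fits that left out senescent control replicate 1 (-1.13, adjusted p = 0.0532) or 2 (-1.08, adjusted p = 0.0631), shTXNRD1 replicate 2 (-1.14, adjusted p = 0.0549), DMSO replicate 1 (-1.02, adjusted p = 0.0709) or TRi-1 replicate 2 (-1.12, adjusted p = 0.0549). ITGB1 fell short in fits that left out senescent control replicate 2 (0.35, adjusted p = 0.0568) or DMSO replicate 1 (0.33, adjusted p = 0.0698), ITGA1 without DMSO replicate 1 (0.33, adjusted p = 0.0512) and ITGA10 without TRi-1 replicate 3 (0.76, adjusted p = 0.05) or without the 3 libraries of lowest GC tilt (0.71, adjusted p = 0.0623). The GC-corrected differences of ITGA1, ITGA3, ITGAV and ITGB1 were 0.10, -0.54, 0.19 and 0.12, all still called. In all, 15 of the 21 differences were called in every alternative and with every library left out, and 17 of 21 calls for the hairpin, 6 of 11 for TRi-1 and 20 of 25 for senescence.

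**Figure D5:**
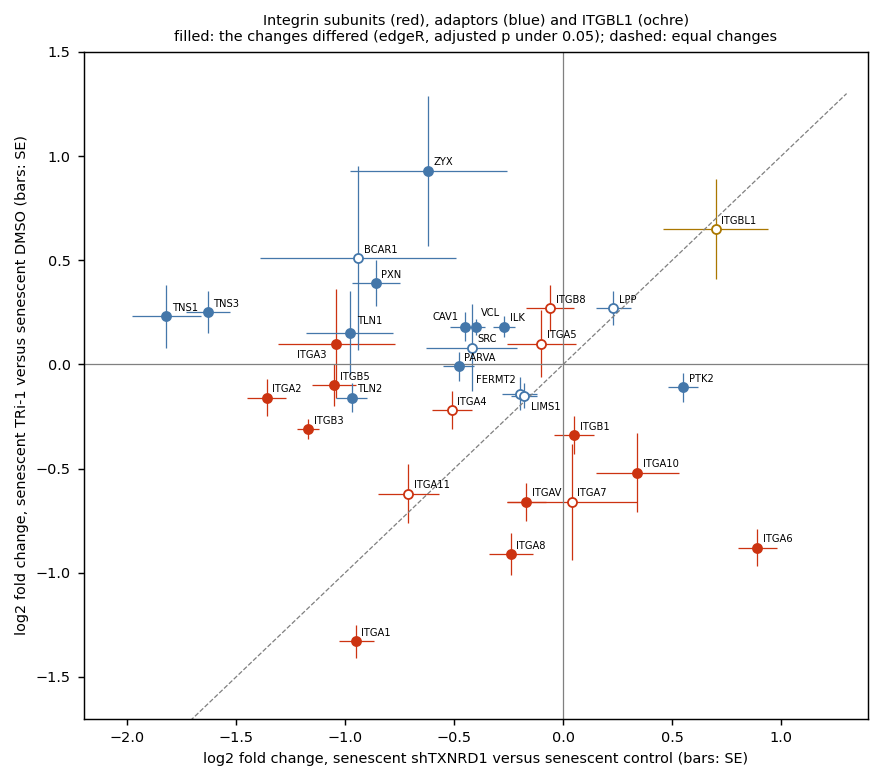
Log2 fold change with the hairpin against senescent control (horizontal axis) and with TRi-1 against DMSO (vertical axis), with SE, for the 32 tested members. Integrin subunits are red, adaptors blue and ITGBL1 ochre, filled points differ between the inhibitions and the dashed line marks equal changes. TNS1 and TNS3 lie far to the left at small positive TRi-1 values, ITGA6 lies at 0.89 and -0.88, and ITGA1 and ITGA11 are low on both axes.

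DMSO cells were compared with the untreated senescent control, since the inhibitor has its own control group. The members did differ between these controls: 9 were higher and 5 lower, where 8.36% of all tested genes were called higher and 7.87% lower. ITGA6 (1.25 ± 0.09), ITGB5 (0.45 ± 0.10, adjusted p = 0.00535, edgeR), ITGAV (0.41 ± 0.09, adjusted p = 0.00658), TLN2 (0.30 ± 0.07, adjusted p = 0.0103) and ITGB3 (0.26 ± 0.05, adjusted p = 0.00345) were higher with DMSO. ITGA8 (-0.79 ± 0.10, adjusted p = 8.45e-05), CAV1 (-0.52 ± 0.07, adjusted p = 0.000153) and LPP (-0.36 ± 0.08, adjusted p = 0.00966) were lower. These 8 calls held in every alternative and with every library left out.

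The other 6 calls between the controls did not. ITGB1 (0.37 ± 0.09, adjusted p = 0.0116, edgeR) was lost without DMSO replicate 1 (0.31, adjusted p = 0.059), and TNS3 (-0.40 ± 0.10, adjusted p = 0.0116) without senescent control replicate 2 (-0.37) or DMSO replicate 1 (-0.35), with an adjusted p of 0.0565 in both. ILK (-0.20 ± 0.05, adjusted p = 0.018) was lost without senescent control replicate 2 (-0.20) or 3 (-0.18) or DMSO replicate 1 (-0.17) or 3 (-0.21), at an adjusted p from 0.0544 to 0.0878, and was -0.15 after GC correction (adjusted p = 0.233). ITGA1 (0.27 ± 0.08, adjusted p = 0.041), ITGA4 (0.27 ± 0.09, adjusted p = 0.0475) and PTK2 (0.22 ± 0.07, adjusted p = 0.0419) were lost whichever of the 6 libraries was left out, with changes from 0.22 to 0.30, 0.24 to 0.29 and 0.17 to 0.25. Without DMSO replicate 1, 5 members were higher and 3 lower, where 5.68% and 5.95% of all genes were. After GC correction 12 were higher and 8 lower, where 17.3% and 16.2% of all genes were, with ITGA2, ITGA3 and ITGA7 added to the higher and ZYX, PARVA, LIMS1 and FERMT2 to the lower. DMSO libraries enter this comparison and the TRi-1 comparison with opposite signs, so values of the same gene in the 2 comparisons are not independent.

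The wider adhesion machinery was read from a list of 63 other focal adhesion components, 59 of them tested. In senescence 12 of the 59 were higher and 26 lower, against 27.4% and 29.5% of all tested genes, with a median log2 change of -0.19 against 0.03. LPXN, leupaxin, a relative of paxillin, rose 15.8-fold, from 3.99 ± 0.414 to 63.4 ± 4.10 CPM (adjusted p = 5.76e-14, edgeR). NEDD9 (-1.67 ± 0.05) and ENAH (-2.01 ± 0.08), a docking protein and an actin elongation factor, were among the genes that fell.

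With the hairpin 37 of the 59 were lower and 3 higher (LIMD1, PAK2 and CRK), against 24.8% and 25.8% of all tested genes, with a median of -0.73, or of -0.56 with the GC correction. PDLIM1, a PDZ and LIM protein of stress fibres, fell from 387 ± 15.2 to 81.2 ± 3.28 CPM (-2.25 ± 0.05, adjusted p = 1.15e-12, edgeR), and the adaptors CRKL (-1.65 ± 0.06) and NEDD9 (-1.61 ± 0.06) fell as well. TRi-1 gave 6 higher and 2 lower, the latter FYN (-0.35 ± 0.06) and DOCK1 (-0.26 ± 0.07), against 7.64% and 12.2% of all tested genes, with a median of 0.09. The difference between hairpin and TRi-1 was negative for 36 of the 59 and positive for 3, against 19.5% and 22.1% of all tested genes.

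Ligands of integrins, not all of them bound by the members, were a list of 49 genes, 45 of them tested. In senescence 16 of the 45 were higher and 17 lower, against 27.4% and 29.5% of all tested genes: TNC (2.39 ± 0.07), ICAM1 (2.83 ± 0.09) and POSTN (2.30 ± 0.08) rose and LAMA4 (-1.57 ± 0.05) and LAMA2 (-1.82 ± 0.07) fell. With the hairpin 7 were higher and 27 lower, against 25.8% and 24.8% of all tested genes, the lower ones including THBS1 (-1.36 ± 0.05) and VCAM1, a ligand of ITGA4 (-2.44 ± 0.11). TRi-1 gave 4 higher and 26 lower, against 7.64% and 12.2%, led by POSTN (-1.86 ± 0.08). POSTN, periostin, rose with the hairpin (0.99 ± 0.08) and had the largest tested difference of the ligands named here, 2.85 ± 0.11 (adjusted p = 5.93e-10, edgeR). FN1, the fibronectin bound by ITGA5, was at 12112 ± 389 CPM in senescent controls and 12220 ± 565 with the hairpin.

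The integrin subunits of leukocytes and platelets were a list of 7, of which 2 passed the filter. ITGAX rose in senescence from 0.224 ± 0.0475 to 1.76 ± 0.185 CPM (2.93 ± 0.26, adjusted p = 3.08e-07, edgeR), and was 0.484 ± 0.158 CPM with the hairpin (-1.84 ± 0.24, adjusted p = 1.81e-05) and 2.88 ± 0.520 with TRi-1. ITGAE fell from 26.8 ± 1.29 to 15.6 ± 0.147 CPM in senescence. The partner of ITGAX, ITGB2, had 11 counts in all senescent control libraries and 0 in growing ones.

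Markers of other cell types moved with some comparisons. The fibroblast list had 6 of 9 markers lower and 2 higher with the hairpin, where 24.8% and 25.8% of all tested genes were. With TRi-1, 6 were lower and 1 higher, where 12.2% and 7.64% of all tested genes were. Their summed levels were 11096 to 14370 CPM with the hairpin and 10931 to 11655 with TRi-1, against 14928 to 17308 in senescent controls and 13812 to 16203 with DMSO. The 5 smooth muscle markers summed to 920 to 1013 CPM in growing cells, 722 to 750 in senescent controls, 394 to 465 with the hairpin, 775 to 813 with DMSO and 661 to 671 with TRi-1. The 6 matched endothelial markers summed to 109 to 134, 162 to 174, 106 to 133, 88.7 to 94.3 and 54.2 to 57.6 CPM in the same order. The 7 epithelial markers summed to 60 to 82.8, 50.3 to 56, 55.5 to 67.6, 45.8 to 48.8 and 57.1 to 57.5 CPM. The 4 platelet or megakaryocyte markers summed to at most 2.68 CPM in any library. Their part in the changes of the adhesion genes was not tested.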

How the data were processed

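The authors deposited whole-number counts per Ensembl gene for 15 libraries, made from total RNA with the KAPA RNA HyperPrep kit and 75 bp paired-end reads, per the labels' protocols. RSEM 1.2.3, DESeq2, hg19 and mm10 are listed, without their roles, per the submitters' processing notes; aligner, annotation and counting strand are not given in these sources. Under RSEM the counts could be rounded estimates. Symbols were matched by identifier, and exon length and GC content came from GENCODE (GRCh38) by the same identifiers. After TMM scaling the counts went into edgeR 4.0.16 (quasi-likelihood F test, robust, filterByExpr) in R 4.3.3, in one model of all 15 libraries with a coefficient per group and 10 residual degrees of freedom. P-values were two-sided and Benjamini-Hochberg adjusted over 15994 genes in each of the 5 comparisons. With 3 libraries against 3, an exact permutation test of 1 gene cannot go below p = 0.1. The fit was tested on simulated counts first.

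The members and lists were chosen with earlier results of these data known. Given in full were, per comparison, up to 8 called members of smallest p without overlap and every member called in opposite directions in 2 comparisons; of other lists, up to 3 genes of smallest p in each direction were eligible, and FN1 and PELO were added after their values were seen. Alternatives were DESeq2 1.42.0, limma-voom (limma 3.58.1), other scalings (RLE, upper quartile, genes above 1% of counts left out), no filter, a mean CPM of at least 5, compared groups alone, a replicate block, a loess GC correction (span 0.3) and each library left out.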

Additional observations from a re-analysis of the deposited data

Results flagged for a closer look

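For 4 members the hairpin and TRi-1 were each called against their own control but in opposite directions, and the difference between the effects was itself called by edgeR. The share of all tested genes that met this rule is not given here, so the count is no result about the members. ITGA6 rose with the hairpin and fell with TRi-1, a difference of 1.77 on the log2 scale. VCL (-0.58), PXN (-1.26) and ILK (-0.45) fell with the hairpin and rose with TRi-1. After the GC correction the differences were 1.55, -0.71, -0.68 and -0.13, and for ILK it was no longer called (adjusted p = 0.427). ILK rose with TRi-1 to 266 ± 4.41 CPM from a DMSO level of 236 ± 11.2 that was itself below the senescent control (271 ± 7.58; -0.20, adjusted p = 0.018, edgeR), and that rise was lost in 4 of 11 alternatives and with 5 of 6 libraries left out. The PXN rise with TRi-1 was called in 2 of 6 fits with a library left out and not after GC correction (0.21, adjusted p = 0.134, edgeR). The VCL rise was lost without the filter on low counts (adjusted p = 0.162, edgeR). ITGA6 fell with TRi-1 to 77.9 ± 1.18 CPM from a DMSO level of 144 ± 9.81, while the senescent control was at 60.2 ± 1.78. No reason for these differences was tested.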

How the results depend on the processing

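With the GC correction, PTK2 in senescence turned from -0.01 to 0.11 (adjusted p = 0.00357) and ITGB1 with the hairpin from 0.05 to -0.10 (adjusted p = 0.000592). No called value changed sign under any alternative run. For TRi-1, higher members numbered 2 with upper quartile scaling and with no filter, 7 with the GC correction and 9 with the compared groups alone. Of all genes, 6.38%, 2.58%, 16.5% and 15.7% were called higher in these settings, in that order. Lower members numbered 13 with the GC correction and 14 with the compared groups alone, where 18.5% and 20.3% of all genes were. For DMSO against senescent control, 8 were lower with the GC correction, where 16.2% of all genes were. Leaving out single libraries gave 2 to 4 higher members for the hairpin (22% to 27.1% of all genes) and 1 to 3 for TRi-1 (4.74% to 5.19%). For DMSO against control it gave 5 to 6 higher (5.47% to 6.26% of all genes) and 3 to 5 lower (5.17% to 5.95%). Without the 3 libraries of lowest GC tilt, a setting chosen after seeing the data, TRi-1 gave 7 higher and 11 lower, and DMSO against control 8 lower. The shares of all genes were 12.1%, 15% and 12.5%, in that order. Leaving out libraries or groups reduces the samples in the fit, and the cause of the other moves was not tested. With a replicate block, counts higher and lower were 12 and 12 for senescence, 4 and 17 for the hairpin, 4 and 8 for TRi-1, 7 and 14 for the difference and 7 and 5 for DMSO. The shares of all genes, in the same order, were 26.2% and 28.5%, 24.7% and 23.4%, 6.36% and 10.8%, 20.6% and 17.9%, and 6.98% and 6.63%. Same-numbered libraries were not treated as paired in the main fit, since the labels do not say that the numbers mark a shared culture. The correlations of their deviations from group means ran from -0.279 to 0.321, which cannot show whether they were paired. Depth limits ITGA9, ITGB4, ITGB6 and ITGB7.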
